A study of Homo sapiens
Mus musculus with 3 samples.

Results

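EL4 wells with a high share of reads on 6 mitotic genes were compared with EL4 wells in which that share was low. The line EL4 was derived from a mouse T-cell lymphoma. Of 4360 wells in the series with at least 1000 reads and at least 200 genes, 1392 were EL4 wells. Of these, 350 are called mitotic here and 697 low, with 345 wells between them. The wells were chosen by measured values. An EL4 well had at least 1000 reads, at least 200 genes and under 10% human reads. It held at least 3 reads on 5 T-lineage gene identifiers, and at least 3 times as many as on 5 B-lineage identifiers. M is the share of the mouse reads of a well that fell on Ube2c, Cdc20, Ccnb1, Plk1, Cenpf and Top2a. Within each library, mitotic wells were the top 25% by M and low wells those at or below the median. The word mitotic stands for this rank, since no well was observed in mitosis.

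All wells came from 3 ICELL8 libraries, a system that dispenses cells into the nanowells of a chip and gives the transcripts of each well a barcode of 11 bases. Every library was made from equal parts of 4 lymphocyte lines, namely the human T-cell leukemia lines Jurkat and TALL-104, EL4, and the mouse B-cell hybridoma IVA12. The 3'DE protocol (the standard kit for 3' ends) was used for 2 libraries. The 3'DE-UMI protocol was used for 1 library, in which cDNA cleanup and an exonuclease step came before amplification so that unique molecular identifiers (UMIs) could be counted. 3'DE library 1 came from another cell mixture than the other libraries. Mitotic and low wells received no different treatment: they are wells of the same libraries. The tables held 1704, 1518 and 1560 barcodes, against 1684, 1498 and 1465 processed wells in the labels. Read totals were 35581264, 109702878 and 44883618. Wherever 3 values are given side by side, those of 3'DE library 1 and then 3'DE library 2 come before that of 3'DE-UMI.

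The genes of M act in the last phases of the cell cycle. Cyclin B1 (Ccnb1) activates the kinase that drives cells into mitosis, and Plk1 is a kinase for centrosomes, spindle and cytokinesis. Top2a encodes DNA topoisomerase II alpha, which untangles the chromosomes, and Cenpf encodes a protein of the kinetochore, where spindle fibres attach. Cdc20 activates the anaphase-promoting complex, and Ube2c is the ubiquitin-conjugating enzyme that works with this complex to destroy cyclin B and other proteins at the exit from mitosis. Transcripts of such genes build up in G2 and M phase, so in a growing culture a part of the cells carries many of them.

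Of 466, 493 and 433 EL4 wells, 117, 124 and 109 were mitotic and 233, 247 and 217 low. M had no gap between the classes. The lowest mitotic and the highest lower-ranked well had an M of 0.186% and 0.186% in 3'DE library 1, of 0.183% and 0.183% in 3'DE library 2, and of 0.301% and 0.2996% with 3'DE-UMI. At the median, M was 0.107%, 0.0960% and 0.145%, and the highest wells reached 0.568%, 0.829% and 2.02%. Wells with no read on any of the 6 genes numbered 7, 43 and 72, so the lower end of the scale was partly made of zeros, above all in the 3'DE-UMI library.

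**Figure D1:**
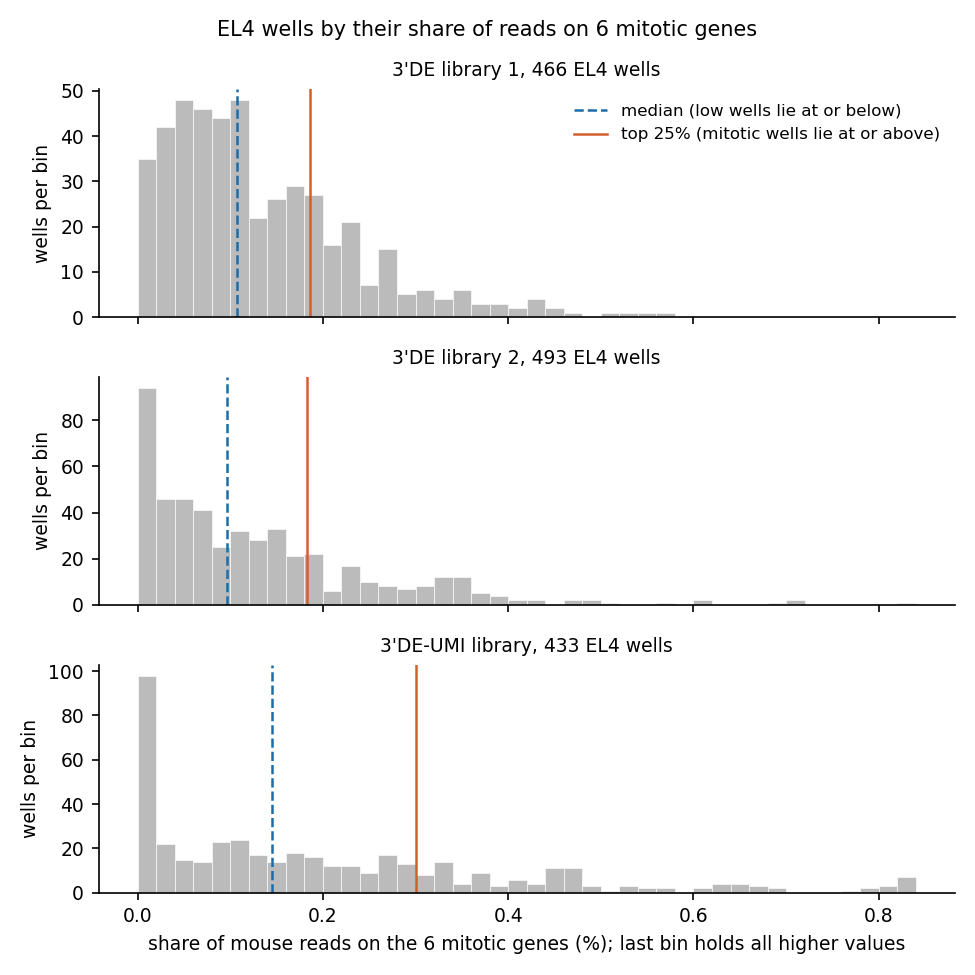
Number of EL4 wells (y axis) by the share of their mouse reads on the 6 mitotic genes (x axis, percent, bins of 0.02) in each of the 3 libraries, with the median (dashed line) and the lower limit of the top 25% (solid line); the last bin also holds all higher values. The distribution is continuous across both lines, and the lowest bin is the tallest in 2 of the 3 libraries.

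Few reads stand behind the rank of a well. Mitotic wells held a median of 79, 130.5 and 142 reads on the 6 genes, and low wells 15, 10 and 9. In UMIs, which were deposited for the 3'DE-UMI library alone, the median was 10 molecules in mitotic wells (quartiles 5 and 15) and 1 in low wells, and 74 of 217 low wells had none. The mitotic wells of that library had 17.1 reads per UMI on the 6 genes and the low wells 10.5, while over all mouse genes they had 11.5 and 11.7. When its EL4 wells were ranked by UMIs in place of reads, 84 of the 109 mitotic wells stayed in the top 25% and 2 fell to the median or below.

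How far 1 gene set the rank was seen by ranking the wells again. Top2a supplied 48.4%, 47.5% and 59.7% of the reads of M in the EL4 wells of the 3 libraries. Without Top2a, 90 of 117, 93 of 124 and 71 of 109 mitotic wells stayed in the top 25%, and 4, 9 and 19 wells fell to the median or below. With Plk1 left out, which gave the fewest reads, 96.6%, 96.8% and 98.2% stayed. After each well was thinned to 5000 mouse reads the shares were 83.6%, 86.4% and 85.2%, and with ranking inside 4 bins of depth they were 91.5%, 96.8% and 91.7%.

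Mitotic wells were somewhat deeper than low wells. Median reads per well in mitotic and low wells were 30706 and 26990, 40084.5 and 36573, and 30413 and 29048. The direction was the same in each of the 3 libraries. Mitotic wells also had more genes, with medians of 3228 and 2894, 3113.5 and 2763, and 1353 and 1231. At 5000 mouse reads per well, medians were 1626.5 and 1568 genes, 1515.5 and 1406, and 977.5 and 889. More genes at equal depth were thus found in mitotic than in low wells in all 3 libraries. With 3'DE-UMI the wells between had more still, with medians of 994 genes at equal depth and 39500 reads. IVA12 wells ranked in the same way had 1617 and 1585, 1499 and 1479, and 1204 and 1135 genes at equal depth. The pattern was thus not particular to EL4. As 3 library pairs cannot give an exact p below 0.25, no test was run. Human reads made up medians of 0.446% and 0.429%, 1.70% and 1.84%, and 0.340% and 0.464%. The part of depth and of other-species reads in the results below was not tested beyond the alternatives named there.

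The T-lineage identifiers were compared between mitotic and low wells, which does not check the identity of the wells. Each of the 5 T-lineage identifiers was left out of the choice of wells and then tested between mitotic and low wells. All were detected in every library, from 16.6 to 2089 CPM (reads of a gene per 1000000 mouse reads of the summed wells). None was called between the classes, with log2 fold changes from -0.08 to 0.26 and adjusted p from 0.607 to 0.980 (edgeR's quasi-likelihood test). None had an unadjusted p under 0.05. The identifier at 0.26 was higher in mitotic wells in every library, at 270, 142 and 320 CPM against 208, 118 and 248. A missed call does not show that the classes are equal. In these 5 fits 0.772%, 0.572%, 0.711%, 0.720% and 0.762% of all genes were called. The 5 B-lineage identifiers stood at 21.1, 13.1 and 1.54 CPM in mitotic and 39.2, 18.2 and 12.8 CPM in low wells. In the low IVA12 wells they stood at 1277 to 2190 CPM. The rule chose both kinds of well by these identifiers. This contrast was thus set by the choice and is no check of identity.

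Libraries shared barcodes, as each barcode of the set can be used on every chip. Both 3'DE libraries had 529 barcodes in common, while the 3'DE-UMI library shared 539 with 3'DE library 1 and 469 with 3'DE library 2. An EL4 well stood on both sides for 94, 83 and 88 of these barcodes. It was mitotic on both sides for 2, 8 and 8. Of those mitotic in 3'DE library 1, 12.5% were mitotic in 3'DE library 2, beside 21.3% of all 94. Of those mitotic in 3'DE library 1, 42.1% were mitotic with 3'DE-UMI, beside 33.7% of all 83. Of those mitotic in 3'DE library 2, 25.8% were mitotic with 3'DE-UMI, beside 28.4% of all 88.

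The levels of the 6 genes describe the classes that they chose, so no test is given for them. Ube2c stood at 356, 384 and 362 CPM in mitotic wells and at 27.2, 29.6 and 18.9 CPM in the low wells. Cenpf stood at 416, 508 and 411 CPM against 50.1, 38.6 and 57.0, and Plk1 at 94.5, 90.5 and 91.1 CPM against 18.8, 13.8 and 7.10. For Ube2c and Plk1 the mitotic wells of the 3 libraries lay close together, while the low wells of the 3'DE-UMI library were the lowest.

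Top2a was at 1256, 1302 and 2669 CPM in mitotic and 281, 230 and 299.7 CPM in low wells. Ccnb1 was at 266, 336 and 762 CPM against 97.6, 50.5 and 148. In the mitotic wells both genes were highest in the 3'DE-UMI library. Cdc20 was at 304, 202 and 184 CPM against 103, 56.1 and 31.9, and it was highest in 3'DE library 1 in both classes. The wells between the classes lay between them for all 6 genes in all 3 libraries.

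**Figure D2:**
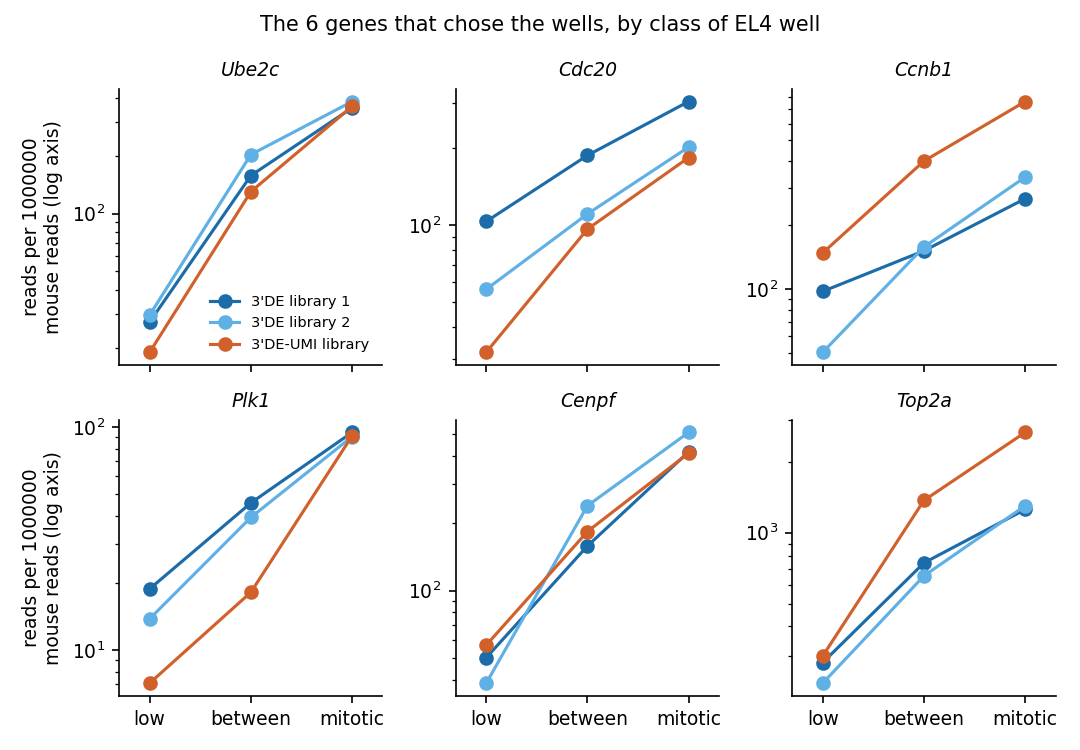
Level of each of the 6 genes (y axis, reads per 1000000 mouse reads, log axis) in low, intermediate and mitotic EL4 wells (x axis), 1 line per library, from reads summed over the wells of a class. All lines rise from low to mitotic because these genes chose the classes; Ube2c ends between 356 and 384 CPM in the 3 libraries, whereas Top2a ends between 1256 and 2669.

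In single wells the genes were detected together only in part. With each well thinned to 5000 mouse reads, mitotic wells had a mean of 4.03, 3.51 and 2.84 of the 6 genes (SD 0.986, 1.29 and 1.26, over 116, 118 and 108 wells). Low wells had 1.60, 0.971 and 0.789. At least 4 of the 6 genes were found in 87 of 116, 61 of 118 and 25 of 108 mitotic wells, and in 11 of 225, 0 of 238 and 0 of 213 low wells. The zeros allow shares of up to 1.26% and 1.41% (3 counts of the total, counting error only). Of 213 low wells in the 3'DE-UMI library 92 had none.

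Top2a was found in 98.3%, 95.8% and 98.1% of thinned mitotic wells, and Ube2c in 73.3%, 65.3% and 41.7%. Plk1 was found in 31.0%, 28.0% and 15.7%. Most mitotic wells therefore had no Plk1 read at this depth. Among low wells the shares were 63.1%, 47.9% and 38.0% for Top2a and 6.67%, 5.04% and 2.35% for Plk1.

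As a background, the same mouse genes were looked for in wells with under 10% mouse reads. In all reads, Top2a was found in 15.4%, 26.2% and 6.46% of these human wells, at median depths of 21426, 34368 and 16457 reads, and in 100%, 97.6% and 98.2% of mitotic and 81.97%, 68.8% and 51.6% of low EL4 wells. With all wells thinned to 5000 reads of both species, Top2a was found in 34 of 441, 46 of 447 and 17 of 503 human wells and in 123 of 225, 117 of 238 and 84 of 214 low EL4 wells. Plk1 was found in 9 of 441, 4 of 447 and 0 of 503 human wells, where the zero allows up to 0.596%, and in 17 of 225, 10 of 238 and 4 of 214 low EL4 wells. The source of the mouse reads in human wells was not tested.

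To give each gene a test that its own reads had not shaped, the EL4 wells were ranked by the other 5 genes, and the top 25% was compared with the wells at or below the median. Reads were summed per library and class, and the library was a block in the fit. 5 of the 6 genes passed an adjusted p of 0.05, and all 6 were higher in the top 25% in 3 of 3 libraries. Among all genes tested, 0.710% were called in the fit that left Ube2c out of the ranking, 0.554% for Cdc20, 0.451% for Ccnb1, 0.546% for Plk1, 0.566% for Cenpf and 0.519% for Top2a.

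Ube2c, the ubiquitin-conjugating enzyme, had the largest change. It stood at 316, 337 and 284 CPM in the top 25% and at 42.3, 51.3 and 24.5 CPM at or below the median. The log2 fold change was 2.97 ± 0.19 (SE, 3 libraries, adjusted p = 5.47e-05, edgeR). It ranged from 2.49 to 3.12 over the alternatives.

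Plk1, the mitotic kinase, stood at 89.1, 82.5 and 77.7 CPM against 23.2, 15.1 and 8.51, a log2 fold change of 2.44 ± 0.29 (adjusted p = 0.00371, edgeR). Cenpf of the kinetochore stood at 342, 419 and 310 CPM against 70.6, 84.8 and 92.2, with 2.05 ± 0.18 (adjusted p = 0.000556, edgeR). For both genes the classes did not overlap between libraries.

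Top2a had a smaller change with a small error. It stood at 1039, 1008 and 1753 CPM against 459, 379 and 799.9, with a log2 fold change of 1.23 ± 0.08 (adjusted p = 5.96e-05, edgeR). The values of each class in the 3'DE-UMI library were above those of the same class in both 3'DE libraries.

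Cdc20, the activator of the anaphase-promoting complex, stood at 258, 176 and 160 CPM against 145, 66.2 and 52.5. Its log2 fold change was 1.21 ± 0.18 (adjusted p = 0.0125, edgeR). Without 3'DE library 2 it was 1.13, with an adjusted p of 0.0759 by edgeR, so that the call was lost.

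Ccnb1 (cyclin B1) did not pass. It stood at 238, 284 and 487 CPM in the top 25% and at 111, 69.2 and 263 CPM at or below the median, with a log2 fold change of 1.23 ± 0.24 (adjusted p = 0.0625, edgeR). The classes overlapped between libraries, as the lower class of the 3'DE-UMI library was above the top 25% of 3'DE library 1. The adjusted p by edgeR was 0.00443 without 3'DE library 1, 0.9002 without 3'DE library 2 and 2.45e-06 without the 3'DE-UMI library. With ranking inside depth bins it was 0.0469, and with each well thinned to 2000 reads 0.000836.

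**Figure D3:**
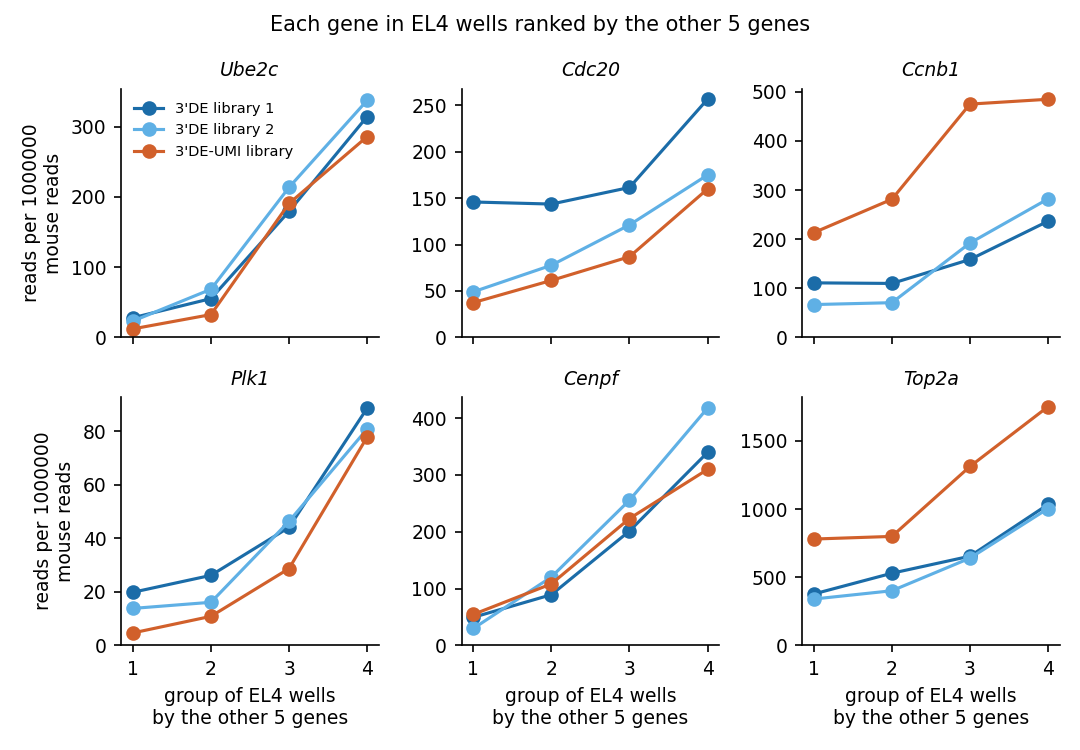
Level of each gene (y axis, reads per 1000000 mouse reads, from 0) in 4 groups of EL4 wells cut at the quartiles of the ranking by the other 5 genes (x axis), 1 line per library; ties at 0 made the first groups of the Top2a panel unequal in the 3'DE-UMI library (154 and 62 wells). The last group is the highest in each panel and library; Ube2c goes from 27.8, 23.1 and 11.97 CPM to 314, 337 and 286, while Cdc20 in 3'DE library 1 stays near 146 CPM over the first groups.

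Over the 4 groups of such a ranking, Ube2c rose at each step in all 3 libraries, from 27.8 to 55.1, 179 and 314 CPM in 3'DE library 1. Plk1, Cenpf and Top2a also rose at each step in all 3 libraries. Cdc20 did not in 3'DE library 1, where it stood at 146, 144, 161 and 257 CPM. Nor did Ccnb1 in that library, at 110.9, 109.7, 158.5 and 236.5 CPM. Ccnb1 in the 3'DE-UMI library stood at 213, 281, 475 and 485 CPM, so its upper groups were close together.

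IVA12 wells, chosen by the B-lineage identifiers in place of the T-lineage ones, passed through the same steps in the same libraries, with 218 mitotic wells of 867. There Cenpf changed by 1.74 ± 0.15 on the log2 scale (adjusted p = 0.00684, edgeR), Ube2c by 1.39 ± 0.21 (adjusted p = 0.0350, edgeR) and Top2a by 0.81 ± 0.10 (adjusted p = 0.0338, edgeR). Plk1, Cdc20 and Ccnb1 did not pass, with log2 values of 0.99, 0.77 and 0.70. All 6 values were below those of EL4.

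The difference between the lines was tested as an interaction in 1 fit of both. For Ube2c the log2 change in EL4 minus that in IVA12 was 1.60 ± 0.27, with an unadjusted p of 7.30e-05 and an adjusted p of 0.773 over all genes (edgeR). For Plk1 it was 1.498 ± 0.41 (unadjusted p = 0.00305, adjusted p = 0.888, edgeR), and for Top2a 0.46 ± 0.13 (unadjusted p = 0.00526, adjusted p = 0.861, edgeR). Ccnb1, Cdc20 and Cenpf differed by 0.57 ± 0.37, 0.48 ± 0.29 and 0.35 ± 0.24 (unadjusted p = 0.144, 0.130 and 0.168, edgeR). After adjustment over all genes, none of the 6 differences passed. By that adjustment, a larger change in EL4 than in IVA12 was not shown for any of them. No adjustment over the 6 genes alone was made. In simulated sums of this design only 10.3% of differences of 1 on the log2 scale and 21.1% of those of 2 were recovered. A missed call therefore says little here.

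**Figure D4:**
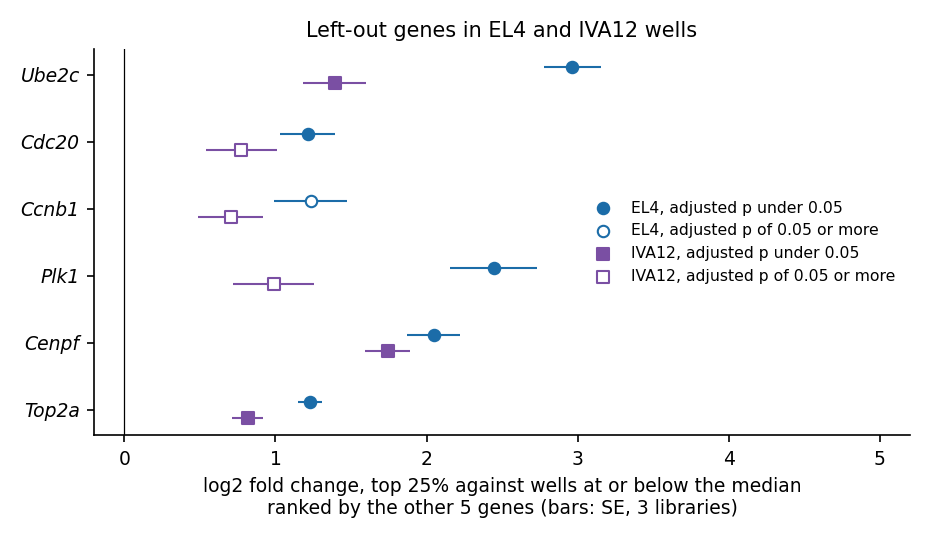
Log2 fold change (x axis) of each gene between the top 25% and the wells at or below the median, ranked by the other 5 genes. Circles are EL4 and squares IVA12, and bars are SE from the fit to 3 libraries. Filled marks have an adjusted p under 0.05. EL4 values lie to the right of IVA12 values for all 6 genes, from 2.97 against 1.39 for Ube2c to 2.05 against 1.74 for Cenpf. None of these differences passed after adjustment over all genes.

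Genes that had no part in the choice of wells were then compared between mitotic and low EL4 wells. Of 9724 mouse genes tested, 59 were higher in mitotic wells (0.607%) and 11 lower (0.113%) at an adjusted p under 0.05 (edgeR, 6 sums with the library as a block, the 16 genes of the rule left out). An unadjusted p under 0.05 was found for 919 genes. All 70 genes moved the same way in 3 of 3 libraries. Log2 fold changes ran from 0.50 to 2.52 (median 1.39) among the higher genes and from -3.71 to -0.57 (median -0.90) among the lower ones, beside a median of -0.04 over all genes tested. Without the library as a block no gene was called, with 222 genes at an unadjusted p under 0.05. The count of called genes was 242 of 10180 without the 3'DE-UMI library. It was 19 of 9117 when wells with 1% or more human reads were left out. That limit left 24 mitotic and 48 low wells in 3'DE library 2, down from 124 and 247. The part of this loss of wells was not tested.

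The tables give mouse genes as Ensembl identifiers and do not pair them with names. Among the called genes, those with the largest rise at a mean of 20 CPM or more were ENSMUSG00000027306 and ENSMUSG00000025154. ENSMUSG00000027306 stood at 339, 275 and 559.7 CPM in mitotic wells and at 47.0, 50.7 and 99.6 CPM in low wells, with a log2 fold change of 2.52 ± 0.17 (adjusted p = 2.98e-05, edgeR). Its classes did not overlap. In IVA12 wells its log2 fold change was 1.47 (adjusted p = 0.0890, edgeR).

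ENSMUSG00000025154 stood at 43.8, 64.7 and 65.0 CPM against 11.5, 12.5 and 9.37, with 2.298 ± 0.32 (adjusted p = 0.00374, edgeR). With human reads under 1% its change was 2.25 and did not pass (adjusted p = 0.0679, edgeR), and without the library as a block none of the 4 identifiers passed. The largest fall under the same limit was that of ENSMUSG00000017499, at 15.2, 25.4 and 39.8 CPM against 59.9, 52.4 and 112, with a log2 fold change of -1.56 ± 0.27 (adjusted p = 0.0179, edgeR). ENSMUSG00000097971 followed, at 176, 251 and 654 CPM against 368, 594.7 and 967, with -1.03 ± 0.14 (adjusted p = 0.00329, edgeR). Its classes overlapped between libraries, as the mitotic wells of the 3'DE-UMI library were above the low wells of both 3'DE libraries, though mitotic wells were lower within each. With each well thinned to 2000 reads, ENSMUSG00000097971 changed by -0.37 and ENSMUSG00000017499 by -1.12, and neither passed (adjusted p = 0.435 and 0.288, edgeR). Over all alternatives, ENSMUSG00000097971 lost its call in 6 and ENSMUSG00000017499 in 7, among them the ranking without Top2a (adjusted p = 0.185 and 0.105, edgeR).

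Cell cycle lists by identifier were made from the mouse marker pairs that come with the R package scran. These pairs name genes whose order of expression within a cell tells G1, S and G2M phase apart. A gene was put in the phase in which it was most often the higher of a pair, and the genes of the rule were left out. The lists were added after the tables had been seen. In the G2M list, 26 of 110 genes tested were higher in mitotic wells and none was lower by edgeR, beside 0.607% higher among all genes. Of its 115 genes, 110 had passed the filter on low counts. Its median log2 fold change was 0.71 (quartiles 0.03 and 1.45). In all 3 libraries 66 of the 110 genes were higher and 10 lower, beside 1798 and 1452 of 9724 over all genes.

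In the S list 0 of 78 genes were called by edgeR, with 13 at an unadjusted p under 0.05 (7 higher and 6 lower). DESeq2 tested 62 of them and called 2 higher and 2 lower, beside 130 higher and 96 lower of 5765 over all genes. The median of the S list by edgeR was 0.13. In the G1 list 1 of 148 genes was higher and 2 were lower by edgeR, beside 0.607% and 0.113% over all genes. The median of the G1 list was 0.07. Both medians were far below that of the G2M list, and no test between the lists was run. ENSMUSG00000027306 is a member of the G2M list and ENSMUSG00000017499 of the G1 list. Of the 59 higher genes 26 were in the G2M list, 1 was in the G1 list and 32 were in no list.

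Summed over the tested genes of the G2M list, mitotic wells had 13196, 12137 and 12979 CPM, wells between the classes 9740, 10118 and 10200 CPM, and low wells 6511, 6183 and 6479 CPM. The classes did not overlap between libraries. For the S list the sums were 3448, 4118 and 3811 CPM in mitotic and 3437, 3924 and 3337 CPM in low wells. For the G1 list they were 14217, 15290 and 14040 CPM against 14418, 15309 and 12547. Across libraries the classes overlapped for both lists. Within each library the S sum was higher in mitotic wells in 3 of 3, while the G1 sum was above that of low wells with 3'DE-UMI alone. In IVA12 wells 7 of 108 genes of the G2M list that were also tested there were higher in mitotic wells, beside 0.107% of all genes, with a median of 0.66.

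The number of called genes in the G2M list depended on the libraries and settings. It was 27 of 109 without 3'DE library 1, 28 of 110 without 3'DE library 2 and 42 of 111 without the 3'DE-UMI library. Over all genes, 79 of 10078, 62 of 9542 and 152 of 10180 were higher there. Without the library as a block it was 0, with a median of 0.65 in place of 0.71. With human reads limited to under 1% it was 11 of 107, beside 19 of 9117 over all genes. Genes of the list called lower numbered 2 with DESeq2, without the filter on low counts, with UMI counts and without the 3'DE-UMI library, and 1 without 3'DE library 2. Lower over all genes, in the same order, were 96 of 5765, 105 of 15781, 85 of 9388, 90 of 10180 and 25 of 9542.

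EL4 wells were also given a phase by cyclone, the classifier of scran, after thinning to 5000 mouse reads and with every pair that held a gene of the rule left out. Wells with fewer reads received no phase, which left 116, 118 and 108 mitotic and 225, 238 and 213 low wells. Of mitotic wells, 31.9%, 29.7% and 50.9% were called G2M, with 95% Wilson intervals, which cover counting error only, of 24.1% to 40.8%, 22.2% to 38.4% and 41.6% to 60.2%. Of low wells, 1.78%, 3.36% and 12.2% were called G2M, with intervals of 0.693% to 4.48%, 1.71% to 6.49% and 8.47% to 17.3%. The wells between had 18.1%, 17.5% and 23.4%. S was called for 40.5%, 26.3% and 27.8% of mitotic wells against 12.9%, 10.5% and 15.0% of low wells, and for 26.7%, 14.2% and 30.8% of the wells between, so with 3'DE-UMI the wells between had the highest share. G1 was called for 27.6%, 44.1% and 21.3% of mitotic wells against 85.3%, 86.1% and 72.8%. The shares of mitotic and low wells did not overlap between libraries for any phase, yet in both 3'DE libraries under 32% of the wells ranked as mitotic were called G2M. These calls come from few reads per well and also read free RNA, whose part was not tested, so they are given as values.

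**Figure D5:**
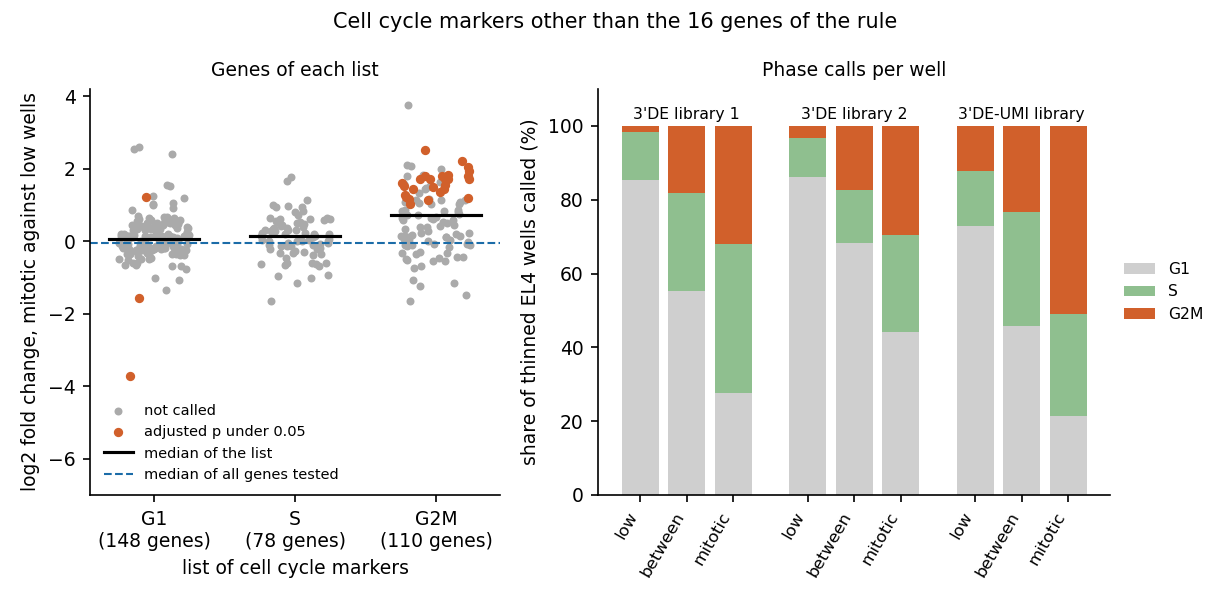
Left, log2 fold change between mitotic and low EL4 wells (y axis) of each tested gene of the G1, S and G2M lists (x axis), with calls in orange, list medians as bars and the median of all genes as a dashed line; right, share of thinned EL4 wells called G1, S or G2M (y axis, percent) by class and library. In the G2M list 26 of 110 genes were called, all higher, against 0 of 78 in the S list, and G2M calls go from 1.78% to 31.9% between low and mitotic wells of 3'DE library 1.

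In IVA12 wells the same classifier called G2M for 30.5%, 34.5% and 44.9% of mitotic and 2.86%, 8.57% and 9.28% of low wells. These shares lay in the same range as those of EL4. Over all genes, no difference between the change in EL4 and that in IVA12 was called (0 of 10678 genes, 0.00%, edgeR), with 594 genes at an unadjusted p under 0.05 and 5 genes called by DESeq2.

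Whether the change between mitotic and low wells differed between the protocols was tested as an interaction. Of 9724 genes 593 were called (6.10%, edgeR), of which 229 had a more positive change in the 3'DE-UMI library and 364 a more negative one. In the G2M list 2 and 6 of 110 genes were called. Only 1 library stood for the 3'DE-UMI protocol and 1 residual degree of freedom was left, so protocol and library cannot be told apart. With UMI counts in place of read counts in the 3'DE-UMI library, 1 gene of 9388 was called.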

How the data were processed

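Single-cell RNA-seq of 3 ICELL8 libraries was used. The deposited tables hold unscaled counts of reads, by gene and by barcode of a well, which the authors made with mappa and STAR 2.7.0b on a combined reference of hg19 and mm10 (Cell Ranger 1.2.0). The methods describe this on downsampled reads, and neither the labels nor the files say it of the deposited tables. For the 3'DE-UMI library the authors also deposited UMI counts, made with Drop-seq tools and STAR 2.4.2a. Tools and builds are those of the submitters' processing notes and the methods. By the methods, the authors processed only wells that the Cell-Select software judged to hold single cells. Beyond that, doublets were treated only through the limits on human and B-lineage reads. Doublets of EL4 cells alone are not seen by these limits.

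Members and lists were chosen with earlier results of these data known. Reads of mitotic and low wells were summed per library, so the library was the unit of replication. The p-values set the size of the difference between the classes against how far it varied between these libraries. That spread may be technical, and the fit shares information on it between genes. Sums were fitted in edgeR 4.0.16 (R 4.3.3, filterByExpr, TMM, quasi-likelihood F-test, two-sided, library as a block since both classes came from the same library), with Benjamini-Hochberg adjustment over all mouse genes tested and a threshold of 0.05. The 16 genes of the rule were left out, except the gene under test. SEs were derived from the F statistic of the fit, so they are no plain spread over the libraries. CPM are reads of a gene per 1000000 mouse reads of the sum. DESeq2 1.42.0, other filters, other rankings and left-out libraries were alternatives. Lists and phase calls used scran 1.30.0 on 27788 of 28492 marker pairs. A list gene needed to be the higher of a pair at least 20 times more often than the lower in its phase.

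The planned lists of named genes and the mitochondrial share needed mouse gene symbols, which the sources used here do not pair with the identifiers. Only the 6 genes of the rule are therefore named, with 2 identifiers that rose and 2 that fell, taken as those with the largest change among called genes with a mean of at least 20 CPM and the same direction in all 3 libraries. On simulated sums, 34.4% of genes changed by 1 on the log2 scale and 60.4% of those changed by 2 were recovered in the comparison of mitotic and low EL4 wells (9367 genes), and 11 unchanged genes were called. Reads are not independent molecules.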

Additional observations from a re-analysis of the deposited data

Results flagged for a closer look

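The change between mitotic and low EL4 wells in the 3'DE-UMI library differed from that in both 3'DE libraries for 593 of 9724 genes by the interaction test of edgeR. As 1 library stood for the 3'DE-UMI protocol and 1 residual degree of freedom was left, this is a difference between libraries, and protocol and library cannot be told apart. In simulated sums of that design 11% of genes with a log2 difference of 1 and 32.7% of those with a difference of 2 were recovered, with 7 unchanged genes called. DESeq2 called 69 genes, and with UMI counts for the 3'DE-UMI library 1 gene was called, with 362 at an unadjusted p under 0.05 against 1977 in read counts.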

How the results depend on the processing

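The alternatives without Top2a, with equal weights of the 6 genes, those of the G2M list, the depth bins and thinning to 2000 reads for the 6 genes ranked without themselves, and the thinning of human wells were chosen after seeing the data. Between mitotic and low EL4 wells 70 of 9724 genes were called as reported. DESeq2 gave 226 of 5765, no filter on low counts 235 of 15781 and UMI counts 233 of 9388. Ranking by 5000 reads per well gave 36 of 9750, and leaving out the deepest wells 39 of 9549. A threshold of 0.01 gave 36 of 9724, the top 10% by M 19 of 9193 and human reads under 1% 19 of 9117. With no replicate block it was 0 of 9724. Leaving out 1 library gave 87 to 242. Counting 2 of these libraries left out, 8 alternatives stayed between 48 and 100. In the G2M list 26 of 110 genes were higher as reported. The same settings gave 43 of 86 (DESeq2), 41 of 113 (no filter), 44 of 106 (UMI counts) and 17 of 110 (threshold of 0.01). They gave 17 of 72 (wells thinned to 2000 reads), 11 of 108 (top 10%), 11 of 107 (human reads under 1%) and 0 of 110 (no replicate block). Higher over all genes, in the same order, were 130 of 5765, 130 of 15781, 148 of 9388, 33 of 9724, 49 of 4174, 19 of 9193, 19 of 9117 and 0 of 9724. Without 1 library the list gave 27 to 42. The protocol difference, 593 genes, fell to 69 with DESeq2, 57 with ranking inside depth bins and 1 with UMI counts. The difference from IVA12, 0 genes, became 5 with DESeq2 and 0 to 1 without 1 library. Of the 6 genes ranked without themselves, 4 to 6 passed under each alternative. No direction changed for these 6 genes or the 4 identifiers under any alternative run. The causes were not tested. With 3 libraries and medians of 10 and 1 UMIs on the 6 genes per well, single wells are ranked with large counting error, and a missed call says nothing about equality.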
